A study of Homo sapiens with 12 samples.

Results

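The interaction of radiation with knockdown of the farnesoid X receptor (FXR) was read from all 12 libraries of the series as a difference of differences on the log2 scale, the response to radiation in knockdown cells minus that in control cells. A549 is an established human lung adenocarcinoma line, and every group here was A549. The first group, irradiated shFXR, stably carried a short hairpin RNA against FXR and was taken 3 days after ionizing radiation. Sham shFXR carried the same hairpin and was sham irradiated. Irradiated shControl and sham shControl were the matching groups with a control hairpin, whose genotype the labels give as WT. Each group had 3 libraries that the design text describes as biological replicates, so p-values measure the spread between these libraries. The sources used here do not give the radiation dose, when sham cells were harvested, or whether a line was 1 clone or used 1 hairpin sequence. The members are the 2405 of 16053 tested genes whose response to radiation differed between the lines at an adjusted p under 0.05, a share of 15.0%.

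FXR, encoded by NR1H4, is a nuclear receptor that binds bile acids and, usually paired with a retinoid X receptor, regulates transcription, best known from liver and intestine. In A549 cells, which carry intact p53, ionizing radiation breaks DNA. Stabilised p53 then raises CDKN1A, whose product p21 inhibits cyclin-dependent kinases and, by keeping RB-family proteins and the DREAM complex on promoters, lowers transcription of genes needed for DNA synthesis and mitosis. In bulk RNA, fewer cells in a state and less RNA per cell in that state cannot be told apart.

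Library totals were 17140918 to 19036159 counts. Levels are given as CPM, each gene's count relative to its library's total, scaled by the trimmed mean of M values (TMM). NR1H4 (ENSG00000012504, chromosome 12, 100473708 to 100564413 on hg38), the gene the hairpin targets, had 2.84, 3.10 and 3.05 CPM in irradiated shFXR cells and 5.08, 4.57 and 2.81 CPM in sham shFXR cells, against 22.0, 23.3 and 29.1 CPM in irradiated shControl cells and 25.3, 23.3 and 22.3 CPM in sham shControl cells. Its level was lower in every shFXR library than in every shControl library, by 3.05 log2 units after radiation and 2.51 in sham cells. The radiation response of NR1H4 itself was not called different between the lines, at -0.54 ± 0.24 (SE, adjusted p = 0.13), although the call was made without sham shFXR 3, with adjusted p = 0.031. Replicates in shControl lay further apart than those in shFXR, and sham shControl 2 had the lowest weight when limma estimated library quality. Of 15 markers of A549 and alveolar epithelium, 10 passed the filter on low counts and none was at 0 in every library, and their summed level was 4329.5 to 4697 CPM in irradiated shFXR, 4159 to 5173 in sham shFXR, 8789 to 10252 in irradiated shControl and 6590.2 to 9170.4 in sham shControl. No batch is given in the labels.

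The radiation response was higher in shFXR cells than in shControl cells for 1173 genes (7.31% of those tested) and lower for 1232 genes (7.67%), in edgeR's quasi-likelihood test with Benjamini-Hochberg adjustment. The median size of the difference among called genes was 0.57 log2 units with a median SE of 0.14, and 477 genes differed by at least 2-fold. Radiation itself moved 3379 genes in shFXR cells (21.0%, with 10.9% higher and 10.2% lower) and 1611 genes in shControl cells (10.0%, with 5.07% higher and 4.96% lower). The lines differed in 6557 genes after radiation (40.8%) and in 6003 genes in sham cells (37.4%). Called genes were sorted by the fitted response of each line, which counted as present at 1.3-fold or more, 0.38 on the log2 scale. A response was gained, present in shFXR cells only, for 786 genes. It was lost, present in shControl cells only, for 321 genes. In 164 genes it was deepened, with the same sign in both lines and larger in shFXR cells, and in 3 it was shallower. In 212 genes it was reversed, with opposite signs, and in 919 genes both responses were under 1.3-fold. The 3 shallower genes were TM7SF3, TIGAR and CPA4, and deepened upward were ADAMTS7, SULF2, NECAB2 and ENSG00000230650; CPA4, NECAB2 and ENSG00000230650 were picked out after their values were seen. A response under 1.3-fold is not shown to be absent. The same genes, sorted by the gap between the lines, held 793 whose gap of at least 1.3-fold opened after radiation, 541 where such a gap closed, 148 where it widened, 77 where it narrowed and 254 where the lines crossed. In 592 the gap was small before and after. At the 1.3-fold bound, MDK lay just inside and TNS1 just outside on the shFXR axis, and ITGA5 just inside and FIGNL1 just outside on the shControl axis, all at -0.38 or 0.38.

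**Figure D1:**
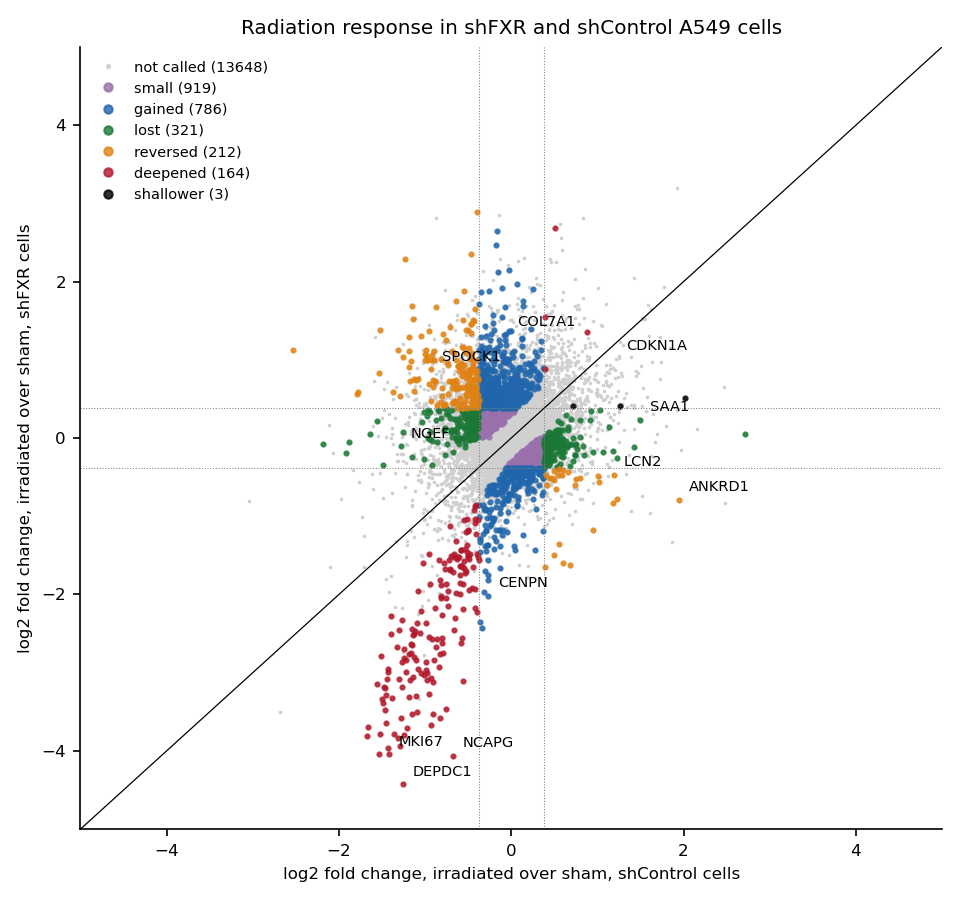
Fitted log2 fold change of irradiated over sham cells in shFXR cells (y axis) against shControl cells (x axis), 1 point per tested gene, coloured by shape; dotted lines mark 1.3-fold and the solid line equal responses. The red points of deepened genes run down to -4.42 on the shFXR axis (DEPDC1) while staying above -2 on the shControl axis.

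The total of 2405 depended on single libraries, being 1162 without irradiated shControl 3, 1243 without irradiated shFXR 3, 1445 without sham shFXR 3, 1571 without irradiated shControl 2 and 1595 without sham shFXR 1. The gained class held 459 without irradiated shControl 3, 461 without irradiated shFXR 3 and 515 without sham shFXR 3. The lost class held 143 without irradiated shControl 3, 184 without irradiated shFXR 3, 200 without irradiated shControl 2, 570 without sham shControl 3 and 603 without irradiated shControl 1. The reversed class held 89 without irradiated shControl 3, 131 without irradiated shFXR 3, 135 without sham shControl 1, 138 without sham shFXR 3 and 439 without irradiated shControl 1. The deepened class held between 126 and 162 genes whichever library was left out. Of the 164 genes, 116 to 164 stayed called, the fewest without irradiated shControl 3. Genes given in the paragraphs that follow with a difference kept their call without each library in turn unless stated.

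The base composition of transcripts moved with the difference. In the quintile of genes with the highest GC content, 631 genes were called higher and 31 lower, and in the quintile with the lowest GC content 42 were called higher and 537 lower. Across 16043 genes, which are not independent replicates, the Spearman rank correlation between GC content and the difference was 0.39. The trend was opposite in the irradiated groups. The median deviation of GC-rich minus GC-poor genes was 0.151, 0.114 and 0.223 log2 units in irradiated shFXR libraries, -0.0819, -0.0856 and -0.0278 in sham shFXR, -0.0923, -0.101 and -0.229 in irradiated shControl and 0.0122, 0.193 and -0.0848 in sham shControl. Sham shControl 2 stood apart from its group. When each library's GC trend was removed as an offset, a setting chosen after seeing the data, 1327 genes were called (8.27%), 534 higher (3.33%) and 793 lower (4.94%). Of the 2405 genes, 1057 were among them, and 897 kept their shape. The deepened class kept 141 of its 164 calls, against 382 of 786 for gained, 149 of 321 for lost and 131 of 212 for reversed. The part of GC content in the other calls was not tested, so counts with this adjustment stand beside each group below.

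**Figure D2:**
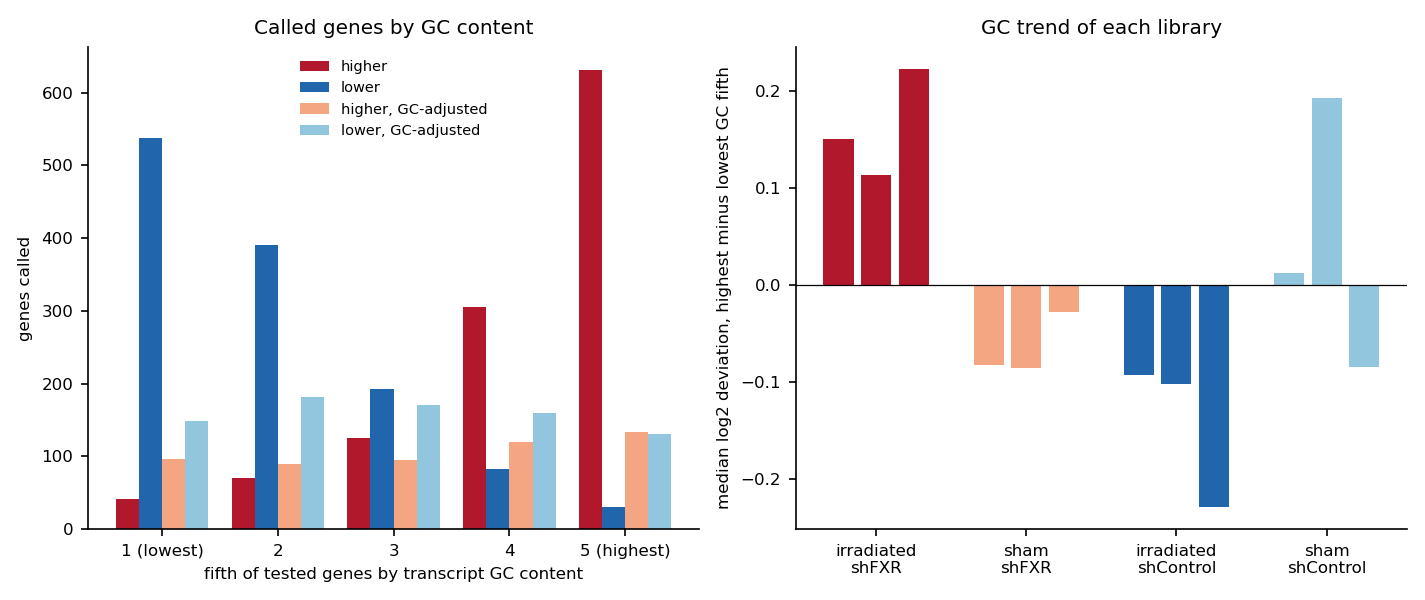
Left, genes called higher (red) and lower (blue) in each quintile of tested genes by transcript GC content, with counts after GC adjustment in pale colours; right, each library's median log2 deviation in the highest minus the lowest GC quintile. Before adjustment 631 genes of the highest quintile were called higher and 31 lower; after it the counts were 133 and 131.

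Genes of the cell division cycle fell further after radiation in shFXR cells than in shControl cells. Of 235 tested members of 9 cell cycle lists, 160 were called lower in the difference and none higher, against 7.67% and 7.31% of all tested genes. With GC adjustment 138 were lower and 0 higher. The count was 109 to 177 with 1 library left out, and without irradiated shControl 1 or sham shControl 3 a single member was called higher. The median difference over the lists was -0.83 log2 units, beside 0.01 over all genes, with a median response of -1.25 in shFXR cells and -0.44 in shControl cells. Radiation lowered 199 members in shFXR cells and 115 in shControl cells. By shape, 107 of the 160 called members were deepened, 48 gained and 5 under 1.3-fold in both lines. The lists were chosen with earlier results of these data known and are described, not tested.

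After radiation 149 of the 160 called members had the lower fitted level in shFXR, with a median line difference of -0.39 over all members, while in sham cells 155 had the higher level in shFXR, with a median of 0.41. Being called lower favours both signs. Among all genes called lower, shFXR had the lower irradiated level in 152 of 160 deepened, 267 of 300 gained and 128 of 149 lost. Where both responses were under 1.3-fold it was 525 of 592. The higher sham level was in shFXR for 155, 258, 87 and 429 of these, in the same order. Of the called cell cycle members, 64 crossed, differing by at least 1.3-fold in opposite directions before and after radiation. The larger fall in shFXR cells therefore ran between a lower irradiated level and a higher sham level than in shControl cells.

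**Figure D3:**
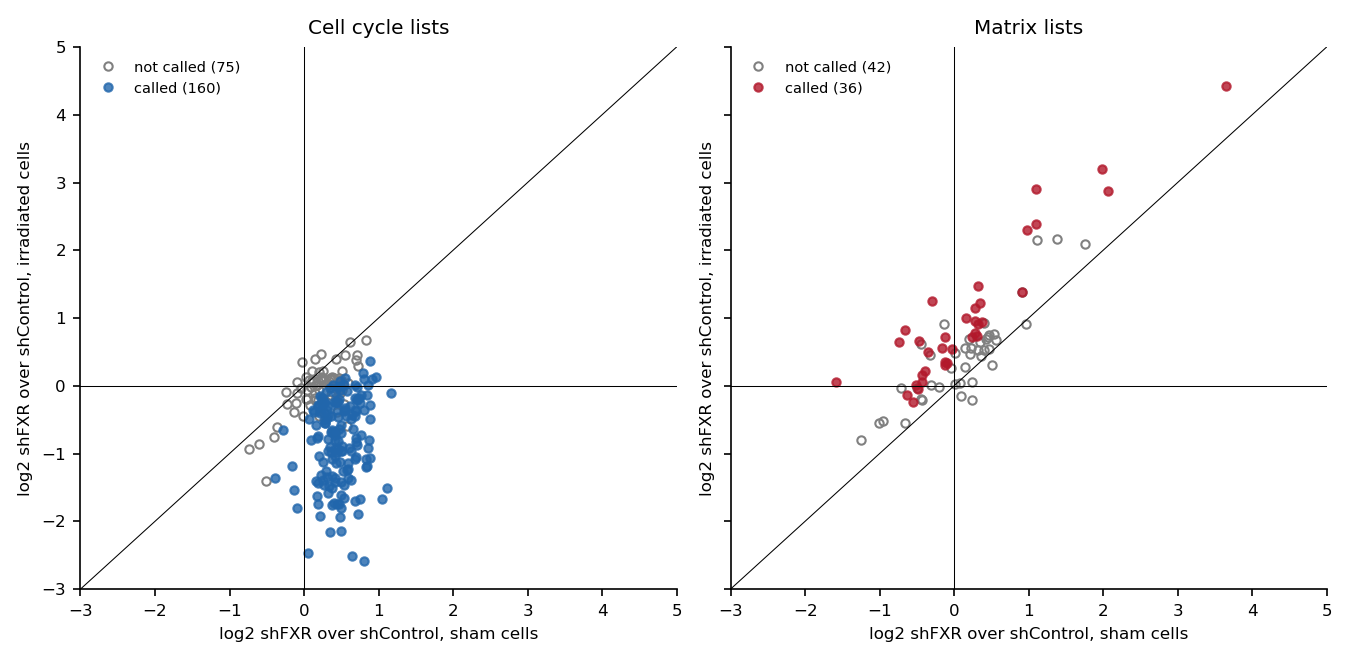
Log2 fold change of shFXR over shControl in irradiated cells (y axis) against sham cells (x axis) for members of the cell cycle lists (left, 160 called of 235) and the matrix lists (right, 36 called of 78); the diagonal marks equal line differences. Most called cell cycle genes sit right of 0 and below 0. All called cell cycle genes lie below the diagonal, which follows from their being called lower. All called matrix genes lie above it, which follows from their being called higher.

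MKI67 encodes Ki-67, the coat protein of mitotic chromosomes used as a marker of cycling cells. It had 6.03, 5.62 and 4.03 CPM in irradiated shFXR cells and 82.3, 68.1 and 108 CPM in sham shFXR cells, against 13.1, 20.7 and 24.5 CPM in irradiated shControl cells and 40.0, 54.8 and 61.7 CPM in sham shControl cells. Groups did not overlap in either line, and irradiated shFXR cells were the lowest of all and sham shFXR cells the highest. The log2 response was -4.04 in shFXR cells and -1.42 in shControl cells, a difference of -2.62 ± 0.30 (SE, adjusted p = 7.2e-05), and -2.62 with adjusted p = 0.00012 after GC adjustment. NCAPG, a subunit of condensin I, had 1.08, 0.803 and 0.763 CPM in irradiated shFXR cells and 15.7, 12.6 and 16.2 CPM in sham shFXR cells, against 2.47, 5.09 and 8.35 CPM in irradiated shControl cells and 5.75, 9.48 and 10.3 CPM in sham shControl cells. The shFXR groups lay far apart, whereas irradiated shControl overlapped sham shControl. Its difference, -3.38 ± 0.46 (SE, adjusted p = 0.00028), was the largest among deepened protein-coding genes with a mean of at least 5 CPM, and its response in shControl cells, -0.68 (adjusted p = 0.13), was not called. DEPDC1, needed for mitotic progression, had 0.682, 0.688 and 0.927 CPM in irradiated shFXR cells and 16.9, 14.2 and 18.8 CPM in sham shFXR cells, against 2.91, 4.92 and 5.42 CPM in irradiated shControl cells and 8.65, 11.5 and 11.6 CPM in sham shControl cells. All 12 values separated by treatment within their line, with a difference of -3.16 ± 0.33 (SE, adjusted p = 3.3e-05). EXO1, a nuclease of mismatch repair and DNA end resection, and ESCO2, which acetylates cohesin in S phase, completed the leading genes of this class, with differences of -2.75 and -2.71 log2 units.

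**Figure D4:**
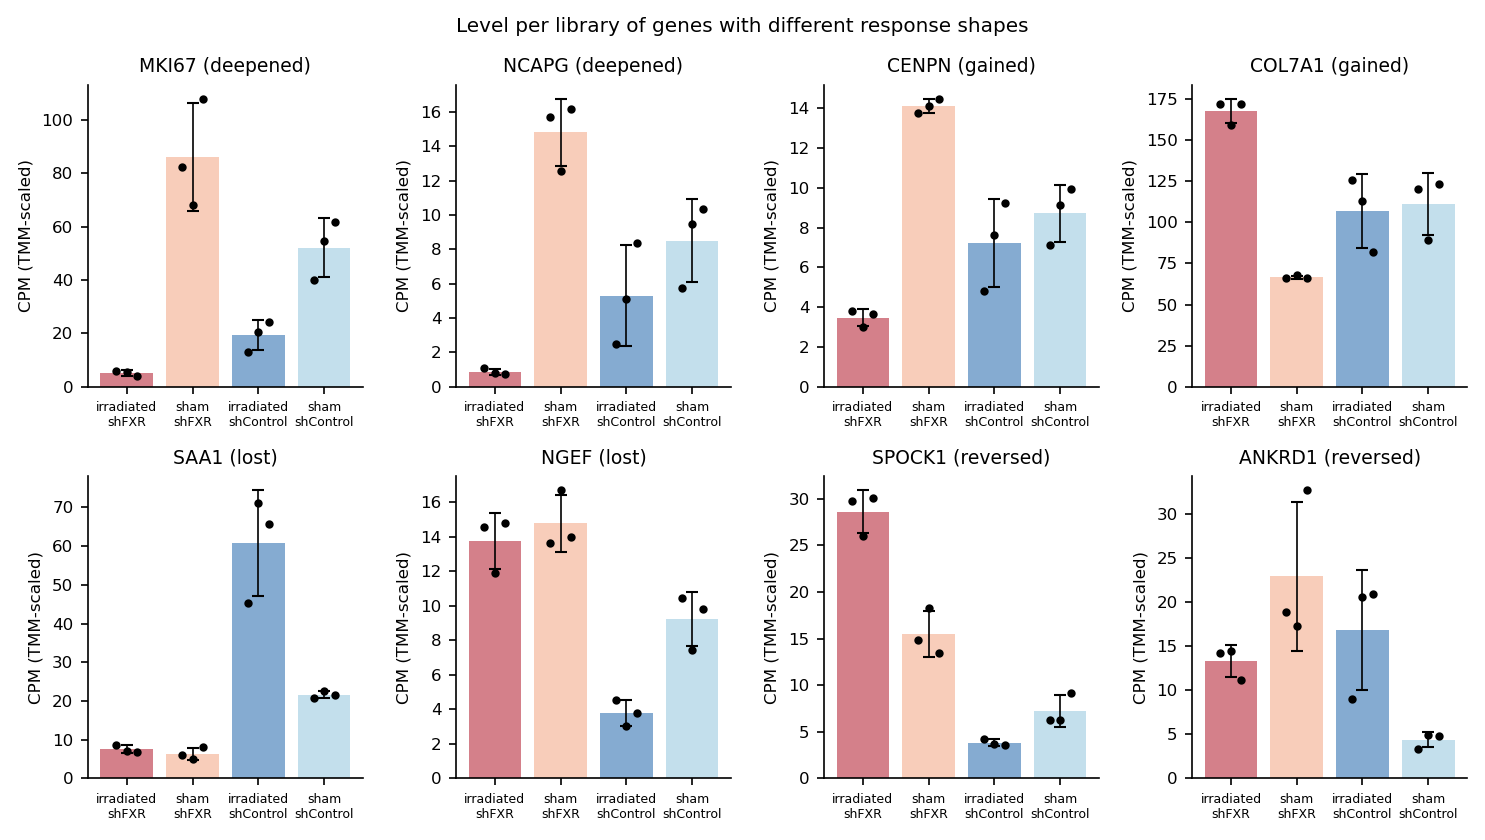
CPM per library (points), group mean (bars) and SD (error bars, n = 3 per group) for 8 genes, in the order irradiated shFXR, sham shFXR, irradiated shControl and sham shControl. MKI67 and NCAPG drop to 5.23 ± 1.05 and 0.882 ± 0.173 CPM in irradiated shFXR cells; SAA1 and NGEF change in shControl cells; SPOCK1 and ANKRD1 move in opposite directions in the lines.

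The promoters of deepened genes often carried 2 short motifs known from cell cycle genes. The CHR (cell cycle genes homology region, TTTGAA) is the element through which DREAM and B-MYB with FOXM1 act, and the CCAAT box is bound by NF-Y. RefSeq promoter windows (GRCh38.p14), 250 bases before to 50 after each start, were searched on both strands, with overlaps allowed. Of 160 deepened genes that were lower, 131 matched a window, and 45.8% of these held a CHR and 66.4% a CCAAT. The shares were 9.79% and 36.2% among 11524 tested genes with a window, and 15.4% and 35.7% among all 27305 windows. Median GC content was 62.7% in windows of deepened genes that were lower, 65.3% in those of tested genes and 58.3% in all windows. Its part in these shares was not tested. Genes gained downward held a CHR in 16.9% and genes reversed upward in 8.77%. The E2F core TTCCCGC was in 21.4% of deepened genes that were lower, 19.2% of genes gained downward and 10.0% of tested genes. A match is a description of letters, not a bound site.

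Windows are shown for the 4 deepened protein-coding genes with the largest differences among those that averaged at least 5 CPM and held a CHR. Genes on a chromosome that the rule excluded were passed over. All 4 thus hold a CHR by selection, beside 45.8% of the deepened genes that were lower and matched a window. CHR and CCAAT letters on either strand are in capitals. NCAPG is at chr4:17810729-17811028 on the plus strand, DEPDC1 at chr1:68497033-68497332 on the minus strand, DLGAP5 at chr14:55191536-55191835 on the minus strand and MKI67 at chr10:128126374-128126673 on the minus strand.
NCAPG: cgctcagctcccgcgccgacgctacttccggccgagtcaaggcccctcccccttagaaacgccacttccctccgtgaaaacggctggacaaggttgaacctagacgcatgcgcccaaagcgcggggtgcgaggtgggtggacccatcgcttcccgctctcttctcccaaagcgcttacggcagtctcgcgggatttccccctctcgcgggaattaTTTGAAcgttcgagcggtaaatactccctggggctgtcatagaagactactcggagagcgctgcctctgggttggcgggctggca
DEPDC1: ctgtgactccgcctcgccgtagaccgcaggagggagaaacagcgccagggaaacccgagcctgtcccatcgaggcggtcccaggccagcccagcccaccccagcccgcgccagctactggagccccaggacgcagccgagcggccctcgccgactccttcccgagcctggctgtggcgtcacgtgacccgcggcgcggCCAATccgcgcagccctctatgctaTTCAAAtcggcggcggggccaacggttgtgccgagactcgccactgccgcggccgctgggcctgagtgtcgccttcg
DLGAP5: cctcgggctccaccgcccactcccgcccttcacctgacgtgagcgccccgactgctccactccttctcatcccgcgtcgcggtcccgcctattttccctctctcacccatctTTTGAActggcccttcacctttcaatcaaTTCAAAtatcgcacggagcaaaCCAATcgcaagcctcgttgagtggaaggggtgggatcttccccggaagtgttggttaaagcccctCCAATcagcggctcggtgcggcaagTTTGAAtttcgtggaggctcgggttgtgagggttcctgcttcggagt
MKI67: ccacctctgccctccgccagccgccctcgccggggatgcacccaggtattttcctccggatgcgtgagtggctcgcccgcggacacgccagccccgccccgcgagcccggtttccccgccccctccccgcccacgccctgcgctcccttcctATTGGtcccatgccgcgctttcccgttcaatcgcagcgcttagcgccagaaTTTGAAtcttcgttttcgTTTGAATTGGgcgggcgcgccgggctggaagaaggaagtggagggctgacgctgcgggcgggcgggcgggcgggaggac
The CHR of NCAPG began 35 bases before the start and that of DEPDC1 27 bases before it. MKI67 held CHRs 47 and 29 bases before the start, and its nearer CCAAT, read on the other strand, overlaps the nearer CHR. DLGAP5 held 3 CHRs and 2 CCAAT boxes.

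Among regulators of cell cycle transcription, 10 of 19 E2F, RB and DREAM genes were lower and none higher (6 lower with GC adjustment), but the count was 5 without irradiated shControl 3, irradiated shFXR 3 or sham shFXR 3 and 6 without irradiated shControl 2, sham shControl 1 or sham shFXR 1. MYBL2, encoding B-MYB, had 6.08, 5.22 and 3.92 CPM in irradiated shFXR cells and 41.9, 39.1 and 57.8 CPM in sham shFXR cells, against 6.91, 10.2 and 15.0 CPM in irradiated shControl cells and 15.1, 35.5 and 27.3 CPM in sham shControl cells. Its groups separated in both lines, and its difference was -1.92 ± 0.38 (SE, adjusted p = 0.0032). FOXM1, the transcription factor of G2 and M genes, had 5.29, 4.70 and 3.98 CPM in irradiated shFXR cells and 29.9, 24.4 and 32.2 CPM in sham shFXR cells, against 6.58, 7.72 and 9.49 CPM in irradiated shControl cells and 13.8, 20.9 and 18.8 CPM in sham shControl cells. It fell by 2.63 log2 units in shFXR cells and by 1.16 in shControl cells, a difference of -1.47 ± 0.24 (SE, adjusted p = 0.00083). E2F2, an activating E2F, had a difference of -1.39 ± 0.37 (SE, adjusted p = 0.018), with adjusted p = 0.087 without irradiated shControl 3, 0.053 without irradiated shFXR 3 and 0.054 without sham shFXR 3.

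For DNA synthesis, 20 of 26 licensing and origin firing genes were lower (19 with GC adjustment, 13 without irradiated shControl 3), as were 21 of 33 genes of the replication fork and nucleotide supply (18 with GC adjustment, 12 without irradiated shControl 3). CDC6, which loads the MCM helicase, had 6.65, 6.08 and 6.05 CPM in irradiated shFXR cells and 35.4, 32.9 and 46.9 CPM in sham shFXR cells, against 11.3, 15.8 and 22.2 CPM in irradiated shControl cells and 15.2, 30.8 and 28.3 CPM in sham shControl cells. Only the shFXR groups separated, and the shControl response was -0.59 (adjusted p = 0.092). MCM10, CDC45 and GINS2, which activate the helicase, had differences of -2.61, -1.85 and -2.03 log2 units. RRM2, the small subunit of ribonucleotide reductase, had 2.39, 2.12 and 2.13 CPM in irradiated shFXR cells and 16.9, 15.0 and 23.8 CPM in sham shFXR cells, against 4.06, 7.49 and 10.5 CPM in irradiated shControl cells and 9.18, 18.1 and 15.0 CPM in sham shControl cells. Its difference was -2.13 ± 0.40 (SE, adjusted p = 0.0023). Thymidine kinase TK1 differed by -1.57. RFC3, a subunit of the clamp loader, was gained, with 7.62, 7.40 and 7.79 CPM in irradiated shFXR cells and 22.7, 22.0 and 27.3 CPM in sham shFXR cells, against 11.2, 12.4 and 17.1 CPM in irradiated shControl cells and 12.0, 15.3 and 17.2 CPM in sham shControl cells. Its shControl groups overlapped and its shFXR groups did not, for a difference of -1.53 ± 0.21 (SE, adjusted p = 0.00032).

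Of the cyclins, kinases and phosphatases of S, G2 and M, 19 of 25 were lower (18 with GC adjustment). CCNA2, cyclin A2, had 2.22, 2.52 and 2.62 CPM in irradiated shFXR cells and 22.4, 20.7 and 29.6 CPM in sham shFXR cells, against 5.54, 7.66 and 10.1 CPM in irradiated shControl cells and 11.1, 19.2 and 19.8 CPM in sham shControl cells. Treatment groups were separate in both lines, and the difference was -2.20 ± 0.32 (SE, adjusted p = 0.00043). The mitotic kinase genes NEK2, PBK and BUB1B, the last of the spindle checkpoint, differed by -2.51, -2.31 and -1.95 log2 units. Of kinetochore and centromere genes, 23 of 34 were lower (20 with GC adjustment). KNL1, the kinetochore scaffold, and NUF2, of the microtubule-binding NDC80 complex, both differed by -2.42. CENPN, which reads the centromeric nucleosome, was gained, with 3.81, 2.98 and 3.65 CPM in irradiated shFXR cells and 13.8, 14.1 and 14.5 CPM in sham shFXR cells, against 4.82, 7.61 and 9.22 CPM in irradiated shControl cells and 7.12, 9.12 and 9.92 CPM in sham shControl cells. Its shFXR groups stood apart, its shControl groups overlapped, and its difference was -1.74 ± 0.27 (SE, adjusted p = 0.00059).

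The spindle and cytokinesis list had the highest share, 30 of 32 lower (29 with GC adjustment), with a median difference of -1.62. DLGAP5, which stabilises spindle microtubules at kinetochores, had 1.25, 2.35 and 1.36 CPM in irradiated shFXR cells and 24.5, 21.9 and 29.9 CPM in sham shFXR cells, against 4.61, 7.55 and 9.82 CPM in irradiated shControl cells and 15.2, 19.4 and 19.3 CPM in sham shControl cells. Groups were separate in both lines, with responses of -3.94 in shFXR cells and -1.29 in shControl cells and a difference of -2.65 ± 0.33 (SE, adjusted p = 0.00011). The kinesin KIF20A of cytokinesis and the spindle protein CKAP2L differed by -2.52 and -2.37. KIF18A, a kinesin that shortens microtubule plus ends, was gained: it had 4.32, 3.79 and 3.38 CPM in irradiated shFXR cells and 15.0, 13.5 and 16.6 CPM in sham shFXR cells, against 9.16, 9.78 and 10.2 CPM in irradiated shControl cells and 11.6, 12.4 and 12.4 CPM in sham shControl cells. It fell by 1.97 in shFXR cells, while the shControl response was -0.32 (adjusted p = 0.1), although the shControl groups did not overlap. Of the anaphase promoting complex and sister separation list, 9 of 25 were lower (8 with GC adjustment), led by the activator CDC20, the ubiquitin-conjugating enzyme UBE2C and separase, ESPL1, at -1.91, -1.71 and -1.59. SGO2, which protects centromeric cohesion, was gained, at -1.54 ± 0.24 (SE, adjusted p = 0.00057). Condensin and cohesin genes were lower in 14 of 21 (10 with GC adjustment, 9 without irradiated shControl 3).

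Chromatin and nuclear lamina genes of dividing cells were lower in 14 of 20 (10 with GC adjustment), and the count was 7 without irradiated shControl 3, irradiated shFXR 3 or sham shFXR 3 and 9 without irradiated shFXR 1 or sham shControl 1. TOP2A, the topoisomerase that untangles replicated chromosomes, had 23.1, 21.9 and 19.4 CPM in irradiated shFXR cells and 184, 169.7 and 198 CPM in sham shFXR cells, against 43.4, 66.6 and 87.2 CPM in irradiated shControl cells and 111, 119 and 159.7 CPM in sham shControl cells. All 4 groups were separate, and its difference was -2.12 ± 0.24 (SE, adjusted p = 7.2e-05). The chromosomal protein HMGB2 and the chromatin ATPase ATAD2 both differed by -1.46 log2 units.

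Repair genes that dividing cells express followed the same shape in part. Of 29 homologous recombination and Fanconi genes, 14 were lower and none higher (7 lower with GC adjustment), beside 7.67% and 7.31% of all tested genes. The lower count was 6 without irradiated shFXR 3, 7 without irradiated shControl 3 and 8 without irradiated shControl 2 or sham shFXR 3. BRCA1, which directs broken ends into homologous recombination, had 10.1, 10.4 and 8.01 CPM in irradiated shFXR cells and 33.6, 32.0 and 42.4 CPM in sham shFXR cells, against 10.4, 15.3 and 17.8 CPM in irradiated shControl cells and 16.5, 20.4 and 21.5 CPM in sham shControl cells. It fell in shFXR cells, at -1.92, and its shControl response was -0.42 (adjusted p = 0.1), giving a difference of -1.503 ± 0.23 (SE, adjusted p = 0.00056). RAD51AP1, which promotes strand exchange in recombination, differed by -1.64. Of 19 damage kinase and signalling genes, 6 were lower and 1 higher (4 and 1 with GC adjustment). Among them the CHK1 adaptor CLSPN and the fork protein TIMELESS differed by -2.55 and -1.02. NBN, of the MRN complex that senses double-strand breaks, was gained downward, with 38.3, 39.9 and 34.1 CPM in irradiated shFXR cells and 51.9, 47.3 and 53.7 CPM in sham shFXR cells, against 53.8, 53.8 and 57.1 CPM in irradiated shControl cells and 48.9, 43.2 and 52.2 CPM in sham shControl cells. It fell in shFXR cells and rose without overlap in shControl cells, there by less than 1.3-fold. The difference was -0.63 ± 0.12 (SE, adjusted p = 0.0028). RAD9A, of the checkpoint clamp, was the single higher member; it was not called with GC adjustment (adjusted p = 0.22), and adjusted p was 0.05 to 0.089 without irradiated shControl 2, irradiated shControl 3, irradiated shFXR 2, sham shControl 1, sham shFXR 1, sham shFXR 2 or sham shFXR 3.

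Most direct p53 targets rose in both lines. Among 35 p53 targets, 25 rose after radiation in shFXR cells and 31 in shControl cells, 22 of them in both. CDKN1A had 735, 706 and 753 CPM in irradiated shFXR cells and 353, 377 and 355 CPM in sham shFXR cells, against 763, 783 and 699 CPM in irradiated shControl cells and 324, 320.0 and 325 CPM in sham shControl cells. Irradiated groups overlapped between the lines and lay well above sham, and the difference of responses, -0.20 ± 0.10 (SE, adjusted p = 0.18), was not called, though it was with GC adjustment (-0.40 with adjusted p = 0.014). MDM2, the ubiquitin ligase of p53, had 127, 135 and 126 CPM in irradiated shFXR cells and 74.1, 66.1 and 70.8 CPM in sham shFXR cells, against 176, 192 and 188 CPM in irradiated shControl cells and 79.0, 83.2 and 89.3 CPM in sham shControl cells. Its difference, -0.26 ± 0.10 (SE, adjusted p = 0.086), was not called, though it was without irradiated shControl 1 (adjusted p = 0.043) and without sham shControl 3 (adjusted p = 0.046). GDF15, a secreted stress cytokine, had 50.2, 49.2 and 53.3 CPM in irradiated shFXR cells and 31.5, 27.7 and 33.4 CPM in sham shFXR cells, against 119, 113 and 98.4 CPM in irradiated shControl cells and 46.7, 59.3 and 48.7 CPM in sham shControl cells. Its difference of -0.37 ± 0.14 (SE, adjusted p = 0.072) was not called, whereas it was with GC adjustment (-0.67 with adjusted p = 0.0018) and without sham shControl 2 (adjusted p = 0.0084). Of the list, 7 were lower in the difference and 2 higher (7 and 0 with GC adjustment), beside 7.67% and 7.31% of all tested genes. The lower count was 2 without irradiated shControl 3, irradiated shFXR 3 or sham shFXR 1, 3 without sham shControl 1 and 4 without irradiated shControl 2 or irradiated shFXR 1. The higher count was 1 without irradiated shControl 2, irradiated shControl 3, irradiated shFXR 1, irradiated shFXR 3, sham shFXR 2 or sham shFXR 3.

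SESN1, a stress-induced inhibitor of mTORC1, was lost, with 21.8, 22.4 and 21.6 CPM in irradiated shFXR cells and 18.6, 15.0 and 17.5 CPM in sham shFXR cells, against 22.5, 24.1 and 25.9 CPM in irradiated shControl cells and 10.6, 13.8 and 11.4 CPM in sham shControl cells. It rose by 0.36 log2 units, short of the 1.3-fold bound, in shFXR cells and by 1.03 in shControl cells, for a difference of -0.66 ± 0.15 (SE, adjusted p = 0.0088). The death receptor gene FAS had 24.5, 23.7 and 22.3 CPM in irradiated shFXR cells and 24.0, 19.8 and 21.9 CPM in sham shFXR cells, against 34.3, 40.9 and 45.9 CPM in irradiated shControl cells and 26.4, 24.3 and 26.3 CPM in sham shControl cells. It rose in shControl cells and overlapped in shFXR cells, at -0.55 ± 0.15 (SE, adjusted p = 0.018), but adjusted p was 0.06 without irradiated shControl 3, 0.053 without irradiated shFXR 3, 0.054 without sham shFXR 1 and 0.086 with GC adjustment. BBC3, the BH3-only protein PUMA, went the other way: it was gained, with 29.0, 26.8 and 31.1 CPM in irradiated shFXR cells and 17.0, 15.3 and 15.2 CPM in sham shFXR cells, against 25.2, 23.7 and 26.0 CPM in irradiated shControl cells and 21.8, 20.4 and 20.8 CPM in sham shControl cells. In shControl cells it also rose without overlap, but by less than 1.3-fold. Its difference of 0.62 ± 0.13 (SE, adjusted p = 0.0038) was 0.19 with adjusted p = 0.38 after GC adjustment. The other higher member was PHLDA3, named after its value was seen.

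Extracellular matrix genes showed a higher radiation response in shFXR cells. Of 78 tested members of 3 matrix lists, 36 were higher and none lower, beside 7.31% and 7.67% of all tested genes. With GC adjustment the counts were 25 and 0, and 26 to 48 were higher with 1 library left out. The median difference was 0.47 log2 units, with median responses of 0.40 in shFXR cells and -0.08 in shControl cells. By shape, 18 of the called members were gained, 10 reversed, 4 under 1.3-fold in both lines, 3 lost and 1 deepened. Collagens and their processing enzymes were higher in 15 of 27, matrix glycoproteins and proteoglycans in 12 of 28, and integrins and laminins in 9 of 23 (9, 9 and 7 with GC adjustment, and 14 integrins and laminins without sham shControl 2).

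COL7A1, the collagen of anchoring fibrils, was gained, with 172, 159 and 172 CPM in irradiated shFXR cells and 66.2, 67.7 and 65.9 CPM in sham shFXR cells, against 126, 113 and 81.7 CPM in irradiated shControl cells and 120.4, 89.3 and 123 CPM in sham shControl cells. Irradiated shFXR cells were above every other group, and the shControl groups overlapped. The log2 response was 1.33 in shFXR cells and -0.06 in shControl cells, a difference of 1.39 ± 0.17 (SE, adjusted p = 0.00013), and 1.07 with adjusted p = 0.002 after GC adjustment. COL5A1, a fibrillar collagen, was reversed, with 266, 267 and 265 CPM in irradiated shFXR cells and 161, 164 and 135 CPM in sham shFXR cells, against 56.0, 50.8 and 45.9 CPM in irradiated shControl cells and 75.6, 55.6 and 83.5 CPM in sham shControl cells. It rose in shFXR cells and fell in shControl cells, at 0.79 (adjusted p = 2.7e-05) and -0.49 (adjusted p = 0.011), although the shControl groups overlapped. P4HA3, which hydroxylates collagen prolines, had 89.9, 84.8 and 92.7 CPM in irradiated shFXR cells and 57.1, 59.6 and 49.9 CPM in sham shFXR cells, against 32.1, 30.1 and 34.0 CPM in irradiated shControl cells and 41.2, 44.9 and 47.6 CPM in sham shControl cells. It was reversed, with separate groups in both lines and a difference of 1.16 ± 0.12 (SE, adjusted p = 3.3e-05). COL1A1, the main chain of type I collagen, differed by 1.48 log2 units at levels of at most 6.31 CPM.

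SPOCK1, encoding the proteoglycan testican-1, was reversed, with 29.8, 26.0 and 30.1 CPM in irradiated shFXR cells and 14.8, 18.3 and 13.5 CPM in sham shFXR cells, against 4.22, 3.66 and 3.53 CPM in irradiated shControl cells and 6.23, 6.22 and 9.18 CPM in sham shControl cells. It rose by 0.88 in shFXR cells and fell by 0.93 in shControl cells with no overlap in either line, for a difference of 1.81 ± 0.22 (SE, adjusted p = 0.00011). NID1, a basement membrane linker, and EFEMP2, needed for elastic fibres, differed by 1.21 and 1.54. ITGA5, the fibronectin receptor subunit, differed by 0.86, and the intermediate filament gene VIM, outside these lists, by 0.85.

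Genes of TGF-beta signalling were higher in 9 of 24 and lower in none, beside 7.31% and 7.67% of all tested genes. With GC adjustment the counts were 7 and 1, and 1 was lower without sham shControl 2. LTBP4, which tethers latent TGF-beta to matrix, was reversed, with 64.5, 62.4 and 73.0 CPM in irradiated shFXR cells and 50.5, 54.0 and 45.1 CPM in sham shFXR cells, against 39.0, 30.5 and 23.1 CPM in irradiated shControl cells and 64.8, 48.9 and 54.7 CPM in sham shControl cells. It rose in shFXR cells and fell in shControl cells without overlap, at 1.28 ± 0.19 (SE, adjusted p = 0.0005). PMEPA1, a TGF-beta target that feeds back on SMADs, had 189, 163 and 169 CPM in irradiated shFXR cells and 116, 119 and 114 CPM in sham shFXR cells, against 126, 118 and 125 CPM in irradiated shControl cells and 157, 159.5 and 176 CPM in sham shControl cells. The line order crossed, with shFXR the higher line after radiation and the lower one in sham cells, and the difference was 1.00 ± 0.10 (SE, adjusted p = 3.3e-05). TGFBI, a secreted adhesion protein induced by TGF-beta, had means of 2034 ± 38.8 CPM in irradiated shFXR, 1339.7 ± 120.1 in sham shFXR, 1167 ± 90.6 in irradiated shControl and 1471 ± 76.7 in sham shControl (SD, n = 3 each). Its difference was 0.94 ± 0.12 (SE, adjusted p = 0.00012). Of IGF-binding proteins, TIMPs and the plasminogen system, 10 of 17 were higher and none lower (8 and 0 with GC adjustment). SERPINE2, an inhibitor of thrombin and plasminogen activators, had 233, 225 and 215 CPM in irradiated shFXR cells and 114, 109 and 88.7 CPM in sham shFXR cells, against 108, 89.6 and 93.1 CPM in irradiated shControl cells and 105, 83.6 and 96.7 CPM in sham shControl cells. Irradiated shFXR cells stood above the other 3 groups, which overlapped, and the difference was 1.08 ± 0.14 (SE, adjusted p = 0.00014). The gelatinase MMP2 was gained too, at 1.33.

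YAP and TEAD factors and targets were lower in 5 of 25 and higher in none, beside 7.67% and 7.31% of all tested genes. The lower count was 5 with GC adjustment, and 3 without irradiated shControl 3 or irradiated shFXR 3. The other 20 members were not called, 8 of the 25 had a difference above 0, and the median difference was -0.12. ANKRD1, a nuclear ankyrin-repeat protein used as a readout of YAP and TAZ, led the genes reversed downward, with 14.2, 14.5 and 11.2 CPM in irradiated shFXR cells and 18.8, 17.3 and 32.6 CPM in sham shFXR cells, against 8.94, 20.6 and 20.9 CPM in irradiated shControl cells and 3.38, 4.95 and 4.83 CPM in sham shControl cells. It fell in shFXR cells, at -0.79 (adjusted p = 0.029), and rose in shControl cells, at 1.94 (adjusted p = 0.00027), with no overlap in either line. The difference was -2.73 ± 0.38 (SE, adjusted p = 0.0003). AMOTL2, a YAP-binding angiomotin, and WWTR1, encoding TAZ, differed by -0.68 and -0.55. The other lower members were YAP1, named after its value was seen, and MYOF, which had adjusted p = 0.051 without irradiated shControl 3 and 0.053 without irradiated shFXR 3.

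**Figure D5:**
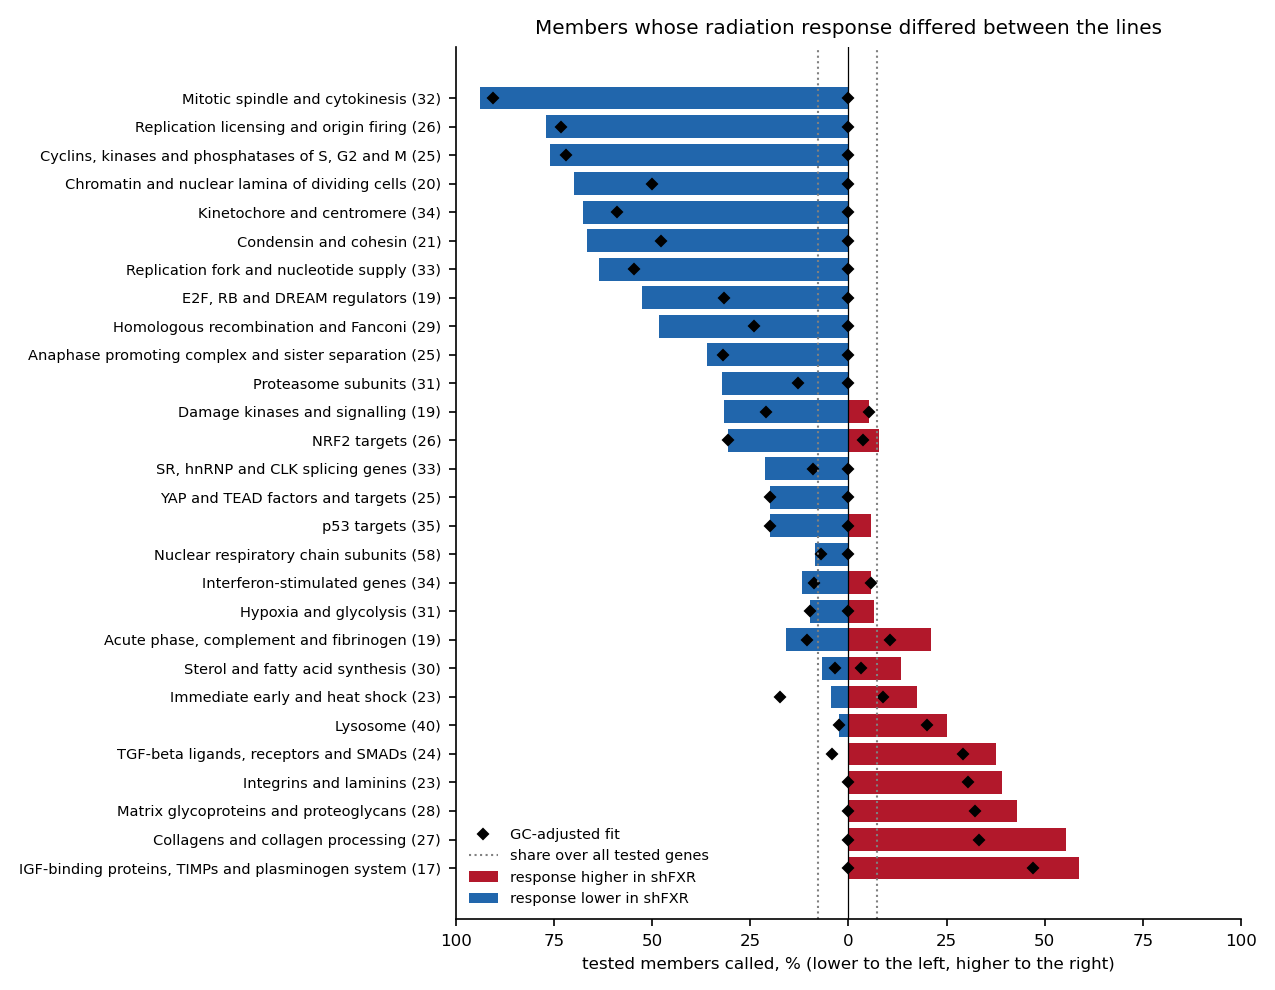
Share of tested members (in brackets) of 28 gene lists called lower (blue, leftward) or higher (red, rightward) in the difference of radiation responses; diamonds give the share with GC adjustment and dotted lines the share over all tested genes, 7.67% lower and 7.31% higher. Lists of the 45 with few tested or few called members are not drawn. The cell cycle lists extend to the left and the matrix, TGF-beta and IGF-binding protein lists to the right.

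Beyond these lists, genes gained upward numbered 486, with a median response of 0.61 in shFXR cells and -0.11 in shControl cells, and 215 of them stayed called with GC adjustment. Among those that code for protein and average at least 5 CPM, ASIC3, an acid-sensing ion channel, differed most, with 8.87, 7.17 and 7.36 CPM in irradiated shFXR cells and 3.81, 3.29 and 3.45 CPM in sham shFXR cells, against 5.48, 5.72 and 3.91 CPM in irradiated shControl cells and 5.86, 6.70 and 6.09 CPM in sham shControl cells. PAQR6, a membrane progestin receptor, had 19.6, 20.1 and 24.7 CPM in irradiated shFXR cells and 10.4, 10.9 and 9.06 CPM in sham shFXR cells, against 19.6, 16.6 and 11.3 CPM in irradiated shControl cells and 19.0, 22.1 and 19.1 CPM in sham shControl cells. Both rose without overlap in shFXR cells, and their differences were 1.45 ± 0.24 (SE, adjusted p = 0.001) and 1.43 ± 0.21 (SE, adjusted p = 0.00053). In shControl cells ASIC3 also fell without overlap, by less than 1.3-fold. SEC31B, a paralogue of the COPII coat protein SEC31A, and SPINT1, an inhibitor of matriptase and hepatocyte growth factor activator, differed by 1.42 and 1.39. Under the same limits CENPN, KIF18A, SGO2 and RFC3, described above, differed most among the 300 genes gained downward.

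Among lost responses of protein-coding genes averaging at least 5 CPM, the largest downward difference was that of SAA1, an acute-phase apolipoprotein that shares near-identical sequence with SAA2, so their counts are uncertain. It had 8.70, 7.17 and 6.70 CPM in irradiated shFXR cells and 5.97, 5.10 and 8.09 CPM in sham shFXR cells, against 45.2, 71.1 and 65.8 CPM in irradiated shControl cells and 20.8, 22.5 and 21.5 CPM in sham shControl cells. Irradiated shControl cells stood above all others, and the shFXR groups overlapped. The log2 response was 0.24 in shFXR cells and 1.49 in shControl cells, a difference of -1.25 ± 0.24 (SE, adjusted p = 0.0024). GLDC, of the glycine cleavage system, had 11.9, 11.4 and 8.83 CPM in irradiated shFXR cells and 9.94, 12.0 and 15.4 CPM in sham shFXR cells, against 20.6, 27.2 and 27.3 CPM in irradiated shControl cells and 11.3, 15.4 and 15.2 CPM in sham shControl cells. Its response was -0.22 (adjusted p = 0.38) in shFXR cells, and it rose in shControl cells, at 0.84 (adjusted p = 0.0021), a difference of -1.06 ± 0.23 (SE, adjusted p = 0.0058). C1orf116 followed at -0.96 and ANKRD33B at -1.02. Upward, the response lost was a fall in shControl cells. NGEF, a guanine nucleotide exchange factor also called ephexin-1, had 14.6, 11.9 and 14.8 CPM in irradiated shFXR cells and 13.6, 16.7 and 14.0 CPM in sham shFXR cells, against 4.55, 3.03 and 3.80 CPM in irradiated shControl cells and 10.4, 7.43 and 9.81 CPM in sham shControl cells. Its shFXR groups overlapped, and in shControl cells it fell by 1.28, a difference of 1.18 ± 0.23 (SE, adjusted p = 0.0027). CACNG7, an auxiliary subunit of AMPA receptors and calcium channels, had 11.1, 10.8 and 13.8 CPM in irradiated shFXR cells and 12.7, 10.8 and 10.4 CPM in sham shFXR cells, against 1.37, 0.801 and 0.759 CPM in irradiated shControl cells and 2.74, 2.30 and 1.99 CPM in sham shControl cells. It fell by 1.26 in shControl cells from a low level, for a difference of 1.33 ± 0.30 (SE, adjusted p = 0.0073). ALDOC and LARGE2, differing by 1.26 and 1.24, reached adjusted p = 0.057 and 0.067 with GC adjustment. Without irradiated shControl 3, LARGE2 had adjusted p = 0.053 and ALDOC 0.063. ALDOC reached 0.056 without irradiated shControl 2, 0.071 without irradiated shFXR 3 and 0.056 without sham shFXR 3.

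NRF2 targets, the glutathione and thioredoxin genes of the antioxidant response, were lower in 8 of 26 and higher in 2 (8 and 1 with GC adjustment, 5 without sham shFXR 3 for lower). Shares over all tested genes were 7.67% lower and 7.31% higher, or 4.94% and 3.33% with GC adjustment. TXNRD1, thioredoxin reductase 1, had 1366, 1348 and 1223 CPM in irradiated shFXR cells and 1508, 1467 and 1676 CPM in sham shFXR cells, against 1406, 1688 and 1878 CPM in irradiated shControl cells and 1036, 1029 and 1225 CPM in sham shControl cells. Its shFXR response was -0.24 (adjusted p = 0.094) and it rose in shControl cells by 0.60, for a difference of -0.84 ± 0.14 (SE, adjusted p = 0.0012). SRXN1, sulfiredoxin, and GCLM, the regulatory subunit of glutamate-cysteine ligase, were lost as well, at -0.89 and -0.71. GCLC, the catalytic subunit, was gained downward, at -0.64. The higher members were AKR1B1 and TKT, the second named after its value was seen, and the count was 1 without irradiated shControl 2, irradiated shControl 3, irradiated shFXR 2, irradiated shFXR 3, sham shControl 1, sham shControl 2, sham shFXR 1 or sham shFXR 3.

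Reversed genes rose in shFXR cells and fell in shControl cells in 184 cases and the opposite in 28. Both responses were called on their own in 38 of the 212 and neither was in 59. SMOC1, a secreted calcium-binding protein, had 10.3, 8.43 and 9.05 CPM in irradiated shFXR cells and 4.92, 4.04 and 3.56 CPM in sham shFXR cells, against 11.8, 8.75 and 6.35 CPM in irradiated shControl cells and 15.7, 10.7 and 11.3 CPM in sham shControl cells. It rose in shFXR cells, and its shControl groups overlapped, with a response of -0.49 (adjusted p = 0.11). SERPINA5, the protein C inhibitor, differed by 1.92, with adjusted p = 0.051 without irradiated shFXR 3, and CDK18 by 1.52. LCN2, lipocalin-2, which binds iron-loaded siderophores, had 1.14, 0.975 and 1.47 CPM in irradiated shFXR cells and 1.77, 1.49 and 1.73 CPM in sham shFXR cells, against 36.8, 44.7 and 39.3 CPM in irradiated shControl cells and 18.5, 20.4 and 14.3 CPM in sham shControl cells. Its shFXR response, at about 1 CPM, was -0.47 (adjusted p = 0.2), and it rose in shControl cells by 1.19, for a difference of -1.66 ± 0.28 (SE, adjusted p = 0.0012). SLC16A6, of the monocarboxylate transporter family, had 2.62, 3.04 and 4.52 CPM in irradiated shFXR cells and 5.80, 4.14 and 4.59 CPM in sham shFXR cells, against 21.1, 25.3 and 23.2 CPM in irradiated shControl cells and 13.6, 11.3 and 15.2 CPM in sham shControl cells. It rose in shControl cells and overlapped in shFXR cells, at -1.30 ± 0.25 (SE, adjusted p = 0.0027). EIF3C, a subunit of initiation factor 3, differed by -1.34, but it shares reads with the near-identical EIF3CL and is uncertain.

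Of FXR partners and bile acid genes, 12 of 24 passed the filter, and 2 were higher and none lower in the difference, with or without GC adjustment. Over all tested genes 7.31% were higher and 7.67% lower, or 3.33% and 4.94% with GC adjustment. A single member was called lower without irradiated shFXR 2, sham shControl 2, sham shControl 3 or sham shFXR 3. ABCC3, an exporter of bile acid and glucuronide conjugates, had 900.3, 954 and 883 CPM in irradiated shFXR cells and 608, 572 and 583 CPM in sham shFXR cells, against 909.6, 789 and 649.9 CPM in irradiated shControl cells and 926, 777 and 802 CPM in sham shControl cells. Sham shFXR cells were the lowest group and the other 3 overlapped, and the difference was 0.73 ± 0.14 (SE, adjusted p = 0.0027). FGFR4, the receptor for the FXR-induced hormone FGF19, had 29.6, 28.6 and 32.8 CPM in irradiated shFXR cells and 20.6, 24.3 and 20.1 CPM in sham shFXR cells, against 19.2, 16.6 and 15.2 CPM in irradiated shControl cells and 20.3, 23.0 and 19.9 CPM in sham shControl cells. It rose in shFXR cells by 0.49 and its difference was 0.79 ± 0.15 (SE, adjusted p = 0.0024).

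Acute phase, complement and fibrinogen genes were mixed, with 4 of 19 higher and 3 lower (2 and 2 with GC adjustment), beside 7.31% and 7.67% of all tested genes. The count of higher members was 2 without irradiated shControl 2, irradiated shControl 3, irradiated shFXR 1, irradiated shFXR 2, sham shControl 1, sham shFXR 2 or sham shFXR 3. C1R, a protease of complement C1, had 91.6, 108 and 98.0 CPM in irradiated shFXR cells and 71.2, 64.8 and 54.4 CPM in sham shFXR cells, against 222, 173 and 159 CPM in irradiated shControl cells and 276, 221 and 209 CPM in sham shControl cells. It stayed below shControl in all shFXR libraries and rose with radiation there, at 0.99 ± 0.17 (SE, adjusted p = 0.0014). Of 34 interferon-stimulated genes, 4 were lower and 2 higher (3 and 2 with GC adjustment), beside 7.67% and 7.31% of all tested genes. The lower count was 2 without irradiated shControl 2, irradiated shControl 3, irradiated shFXR 3 or sham shFXR 1. STAT2, a subunit of the interferon-activated transcription factor, had 34.2, 33.4 and 30.6 CPM in irradiated shFXR cells and 18.5, 20.4 and 16.9 CPM in sham shFXR cells, against 40.4, 35.7 and 29.6 CPM in irradiated shControl cells and 35.4, 31.9 and 35.0 CPM in sham shControl cells. It rose in shFXR cells, at 0.81 (adjusted p = 1.5e-05), and its response was 0.05 (adjusted p = 0.82) in shControl cells, a difference of 0.77 ± 0.15 (SE, adjusted p = 0.0028). Lower members included IFIT2, SAMD9 and HERC6, and the other higher one was IFI6, picked out after its value was seen. With 1 library left out, IFIT2 lost its call in 2 fits, SAMD9 in 3 and HERC6 in 5. The higher count was 1 without irradiated shControl 2, irradiated shControl 3, irradiated shFXR 3, sham shControl 1 or sham shFXR 2 and 4 without irradiated shControl 1.

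Of sterol and fatty acid synthesis genes, 4 of 30 were higher and 2 lower (1 and 1 with GC adjustment), beside 7.31% and 7.67% of all tested genes. The higher count was 1 without irradiated shControl 2, irradiated shControl 3, irradiated shFXR 3 or sham shFXR 1 and 2 without irradiated shFXR 1, irradiated shFXR 2, sham shControl 1 or sham shFXR 3. HMGCS1, the synthase that makes HMG-CoA, was reversed, with 53.8, 54.8 and 52.0 CPM in irradiated shFXR cells and 76.3, 75.5 and 81.3 CPM in sham shFXR cells, against 96.5, 100.4 and 113 CPM in irradiated shControl cells and 76.9, 59.4 and 82.8 CPM in sham shControl cells. It fell in shFXR cells and rose in shControl cells, at -1.04 ± 0.14 (SE, adjusted p = 0.0002). Lysosomal genes were higher in 10 of 40 and lower in 1, beside the same shares (8 and 1 with GC adjustment, 6 without irradiated shFXR 3 for higher). The lower member was lost without irradiated shControl 3, irradiated shFXR 2, sham shControl 1 or sham shFXR 3. GAA, acid alpha-glucosidase, had 249.8, 253 and 260.2 CPM in irradiated shFXR cells and 144, 137 and 136 CPM in sham shFXR cells, against 226, 219 and 182 CPM in irradiated shControl cells and 200.1, 184 and 180.3 CPM in sham shControl cells. GRN, progranulin, had 393, 401 and 436 CPM in irradiated shFXR cells and 266, 263 and 278 CPM in sham shFXR cells, against 413, 409 and 354 CPM in irradiated shControl cells and 425, 446 and 374 CPM in sham shControl cells. Each rose in shFXR cells while its shControl groups overlapped, with differences of 0.72 ± 0.11 (SE, adjusted p = 0.00061) and 0.69 ± 0.11 (SE, adjusted p = 0.0011).

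Proteasome subunits were lower in 10 of 31 (4 with GC adjustment), beside 7.67% of all tested genes (4.94% with GC adjustment). All 10 had responses under 1.3-fold. The count was 5 without irradiated shControl 3, irradiated shFXR 3 or sham shFXR 3 and 16 without sham shControl 2. PSMD14, the deubiquitinase of the proteasome lid, differed by -0.56. Splicing genes of the SR, hnRNP and CLK families were lower in 7 of 33 (3 with GC adjustment), beside the same shares. Their count was 1 without irradiated shControl 3, irradiated shFXR 3 or sham shFXR 3, 3 without sham shControl 1, 4 without irradiated shControl 2 or irradiated shFXR 1, 11 without irradiated shControl 1 and 13 without sham shControl 2. In 13 further lists (end joining, apoptosis regulators, epithelial-mesenchymal regulators, contractile actin, cytokines, NF-kB feedback, antigen presentation, the unfolded protein response, hypoxia and glycolysis, mitochondrial mRNAs, nuclear respiratory chain, ribosomal proteins, and immediate early and heat shock genes) 2 to 5 members each were called. Together they held 30 higher and 17 lower among 360 memberships, a share of 13.1% beside the background of 15.0%. With GC adjustment they held 14 higher and 20 lower. Nuclear respiratory chain subunits were lower in 5 of 58, and in 4 with GC adjustment. The unadjusted count was 1 without irradiated shControl 3 or irradiated shFXR 3, 3 without irradiated shFXR 1, irradiated shFXR 2, sham shControl 1, sham shFXR 1, sham shFXR 2 or sham shFXR 3, 9 without irradiated shControl 1 and 24 without sham shControl 2. Cytosolic ribosomal proteins were higher in 4 of 77, and in 0 with GC adjustment. The unadjusted count was 0 without irradiated shFXR 3, 1 without irradiated shControl 2, irradiated shControl 3, irradiated shFXR 1, sham shControl 2, sham shFXR 1, sham shFXR 2 or sham shFXR 3, 2 without irradiated shControl 1 or sham shControl 1 and 11 without sham shControl 3.

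The 919 genes with responses under 1.3-fold in both lines comprised 327 higher and 592 lower, and 253 stayed called with GC adjustment. TGS1, which further methylates the cap of small nuclear RNAs, had 22.5, 19.7 and 19.5 CPM in irradiated shFXR cells and 27.4, 26.0 and 26.5 CPM in sham shFXR cells, against 19.9, 25.3 and 27.1 CPM in irradiated shControl cells and 17.2, 19.2 and 21.2 CPM in sham shControl cells. Its response was -0.37 in shFXR cells and 0.33 in shControl cells, a difference of -0.70 ± 0.16 (SE, adjusted p = 0.0072). RNF6, KIF2A and IDH3A differed by -0.68, -0.67 and -0.67. GSDMD, the pore-forming gasdermin of pyroptosis, and the deacetylase HDAC5 differed by 0.72 and 0.71, with adjusted p = 0.06 and 0.078 with GC adjustment.

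Antisense genes and lincRNAs are given beside the 15.0% called over all tested genes. Of 770 tested antisense genes 33 were higher and 2 lower, 4.55% in all, with 20 and 0 after GC adjustment. Of 701 lincRNAs 40 were higher and 4 lower, 6.28% in all, with 34 and 4 after GC adjustment. The sources used here do not give the strand setting of the counting, so an antisense gene cannot be told apart from its partner. MEG3, an imprinted lincRNA, had 24.8, 26.8 and 28.2 CPM in irradiated shFXR cells and 8.51, 7.75 and 7.39 CPM in sham shFXR cells, against 9.48, 5.95 and 4.45 CPM in irradiated shControl cells and 5.80, 4.29 and 7.82 CPM in sham shControl cells. Irradiated shFXR cells stood above all others, the other groups lay close, and the difference was 1.61 ± 0.29 (SE, adjusted p = 0.0018). FER1L4, a transcribed pseudogene, differed by 1.49.

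Of 11 fibroblast markers 8 were tested and 3 were higher, COL1A1, FAP and THY1, the last not called with GC adjustment (adjusted p = 0.17). For THY1, adjusted p was 0.059 to 0.11 without irradiated shControl 2, irradiated shControl 3, irradiated shFXR 1, irradiated shFXR 2, irradiated shFXR 3, sham shControl 2, sham shFXR 1 or sham shFXR 3. Summed fibroblast levels were 99.7 to 107 CPM in irradiated shFXR, 62.3 to 77.8 in sham shFXR, 51.1 to 59.6 in irradiated shControl and 52.0 to 58.7 in sham shControl, and their part in the matrix result was not tested. Leukocyte markers summed to 18.6 to 24.8 CPM in irradiated shFXR, 13.3 to 16.5 in sham shFXR, 24.8 to 50.6 in irradiated shControl and 35.8 to 58.8 in sham shControl, with CD14 called higher and CD3E and MS4A1 at 0 in every library. Endothelial and hepatocyte markers stayed under 5 CPM in sum, ERG and FLT1 being at 0, and no erythroid marker passed the filter. Among 2 tested hepatocyte markers 1 was called higher, ASGR1, and 1 with GC adjustment. The difference of ASGR1 was 1.63 to 2.61 with 1 library left out. Of the 10 tested A549 and alveolar epithelium markers, 2 were lower and none higher (3 and 0 with GC adjustment), beside 7.67% and 7.31% of all tested genes. Among the 10, 6 had a difference above 0, and the median difference was 0.21. The lower count was 1 without sham shFXR 3 and 4 without sham shControl 2, and 1 marker was higher without irradiated shControl 1. SFTPD, surfactant protein D, was one of the lower markers, at -1.54 ± 0.35 (SE, adjusted p = 0.0073).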

How the data were processed

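Gene counts were deposited by the authors as a table of whole-number counts per gene for 12 libraries, with no normalization. RNA was selected on poly-T beads and primed with random hexamers, per the labels' protocols. The submitters' processing notes name hg38 and DESeq2 1.20.0. The sources used here do not give the aligner, counter, annotation or strand setting.

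Libraries were grouped by their labels. edgeR 4.0.16 (R 4.3.3) fitted 1 quasi-likelihood model over the 4 groups with TMM scaling and 8 residual degrees of freedom. The filter filterByExpr (minimum count 10, total 15) kept 16053 of 58735 genes. The difference of radiation responses was 1 contrast, with Benjamini-Hochberg adjustment over all tested genes. Fold changes are fitted values with their standard errors; each library's value is TMM-scaled CPM, computed from the deposited counts. With 17140918 to 19036159 counts per library, 3 libraries per group limit the precision more than counting error does for genes with high counts. This does not hold for genes at a few CPM. In 3 simulations with known answers, the test recovered 71.7% of 2-fold and 36.3% of 1.5-fold differences, and 6.09% of its calls were false. These changed 100 genes at each fold and gave all groups the same fitted spread, with no GC trend and no library that stood apart. The data differ in these respects, so 6.09% does not measure the share of false calls among the reported genes. Nor do 71.7% and 36.3% measure the share of real differences found in these data. GC content came from GENCODE 29 transcripts, and promoters from RefSeq (GRCh38.p14).

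For each shape and direction, those named were the 4 called protein-coding genes that differed most and averaged at least 5 CPM, for each list its 4 largest in the commoner direction and 1 in the other, plus NR1H4, CDKN1A, MDM2, GDF15 and MKI67. Not all of them are printed, and some are not reported here. The members, the 45 gene lists and the naming rule were chosen with earlier results of these data known. Alternatives covered DESeq2 1.42.0, limma 3.58.1 with quality weights, scaling, filters, response thresholds, a replicate block and each library left out; GC offsets were added after the data were seen.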

Additional observations from a re-analysis of the deposited data

Results flagged for a closer look

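All values here are the difference of log2 radiation responses, shFXR minus shControl, which edgeR's quasi-likelihood test called different between the lines. The response was higher in shFXR cells for 1173 genes and lower for 1232. MKI67 had -2.62.

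Among lost responses the difference was 1.33 for CACNG7, 1.26 for ALDOC, 1.24 for LARGE2 and 1.18 for NGEF upward, and -1.25 for SAA1, -1.06 for GLDC, -1.02 for ANKRD33B and -0.96 for C1orf116 downward. Among gained responses it was 1.45 for ASIC3, 1.43 for PAQR6, 1.42 for SEC31B and 1.39 for SPINT1 upward, and -1.74 for CENPN, -1.65 for KIF18A, -1.54 for SGO2 and -1.53 for RFC3 downward.

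Deepened responses had a difference of 0.49 for ADAMTS7 and 0.47 for SULF2 upward and of -3.38 for NCAPG, -3.16 for DEPDC1, -2.75 for EXO1 and -2.71 for ESCO2 downward. For ADAMTS7, adjusted p was 0.051 without irradiated shControl 3, and 0.5 with GC adjustment. For SULF2, adjusted p was 0.051 to 0.054 without irradiated shControl 3 or sham shFXR 3, and 0.058 with GC adjustment. The shallower response of TM7SF3 gave -0.31, but adjusted p was 0.059 to 0.11 without irradiated shControl 2, irradiated shControl 3, irradiated shFXR 1, irradiated shFXR 2, irradiated shFXR 3, sham shControl 1, sham shFXR 1, sham shFXR 2 or sham shFXR 3, and 0.051 with GC adjustment. Reversed responses differed by 1.92 for SERPINA5, 1.81 for SPOCK1, 1.64 for SMOC1 and 1.52 for CDK18 upward, and by -2.73 for ANKRD1, -1.66 for LCN2, -1.34 for EIF3C and -1.30 for SLC16A6 downward.

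Where both responses were under 1.3-fold, the difference was 0.74 for NR6A1, 0.73 for CACNG8, 0.72 for GSDMD and 0.71 for HDAC5 upward, and -0.70 for TGS1, -0.68 for RNF6, -0.67 for KIF2A and -0.67 for IDH3A downward. For NR6A1, adjusted p was 0.051 to 0.054 without irradiated shControl 3, irradiated shFXR 3 or sham shControl 1. For CACNG8, adjusted p was 0.053 to 0.11 without irradiated shControl 2, irradiated shControl 3, irradiated shFXR 2, irradiated shFXR 3, sham shControl 1, sham shFXR 1, sham shFXR 2 or sham shFXR 3, and 0.13 with GC adjustment. Groups of 3 libraries are too small for a test of single libraries that stand apart.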

How the results depend on the processing

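With 1 library left out, calls numbered 1162 to 3254, of which 590 to 1507 higher and 572 to 1747 lower. Radiation responses then numbered 2106 to 4254 in shFXR cells and 562 to 1932 in shControl cells, and line differences 5394 to 7283 after radiation and 5000 to 6252 in sham cells. The ranges were 143 to 603 lost, 459 to 915 gained, 126 to 162 deepened, 0 to 7 shallower, 89 to 439 reversed and 337 to 1251 small responses. Genes whose gap between lines opened numbered 388 to 1170, closed 286 to 794, widened 89 to 201, narrowed 35 to 110, crossed 152 to 393 and small 196 to 811. Lower cell cycle members numbered 109 to 177 and higher 0 to 1; higher matrix members numbered 26 to 48 and lower 0.

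GC-adjusted offsets gave 1327 calls, 534 higher and 793 lower, with 164 lost, 436 gained, 5 shallower, 112 reversed and 463 small responses, and 404 opened, 329 closed, 97 widened and 268 small gaps. GC and length offsets gave 685 higher calls, 204 lost, 506 gained, 7 shallower, 132 reversed responses and 495 opened gaps. limma with quality weights called 4300 genes, 2120 higher and 2180 lower, 6298 shFXR and 2659 shControl responses, 619 lost, 14 shallower, 446 reversed and 1926 small, and 1275 opened, 893 closed, 272 widened, 195 narrowed, 424 crossed and 1241 small gaps. Requiring 5 CPM left 1 shallower and 97 reversed responses, 117 crossed gaps and 1 higher cell cycle member, and without the filter 6 were shallower. The cause was not tested.

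At 1.2-fold there were 9 shallower, 474 reversed and 282 small responses, and 233 widened, 454 crossed and 153 small gaps. At 1.5-fold there were 124 lost, 502 gained, 0 shallower, 70 reversed and 1588 small responses, and 334 closed, 89 widened, 43 narrowed, 110 crossed and 1281 small gaps. At 2-fold there were 40 lost, 252 gained, 62 deepened, 0 shallower, 12 reversed and 2039 small, and 264 opened, 129 closed, 33 widened, 20 narrowed, 11 crossed and 1948 small gaps. Defining a response by its own adjusted p gave 1292 gained, 6 shallower, 109 reversed and 388 small.

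DESeq2 called 2684 genes, its size factors in edgeR 2428, and total counts 2146. The replicate block gave 2358 calls, 2238 shared with the unblocked fit; the numbers share only a label, with same-number correlations of -0.14 to 0.23, and 4 of 12 libraries correlated best with their own number. Of 192 called named genes, GC adjustment ended 54 calls, the block 8 and DESeq2 2.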
